A study of Mus musculus with 14 samples.

Results

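The 9 genes described here carry out the making and breaking of muscle glycogen: Ppp1r3c, Ppp1r3a, Ugp2, Gys1, Gbe1, Pygm, Phka1, Phkb and Phkg1. They were taken by gene symbol from the 24359 genes used of each of 14 RNA sequencing libraries, and all 9 were listed. The libraries hold poly(A) RNA from C57Bl/6 mice, taken from the tibialis anterior, a shin muscle that is built mostly of fast fibres. At day 3 there were 4 libraries of follistatin-treated muscle and 3 of control muscle. The chronic set held 2 follistatin and 2 control libraries of day 7, with 2 follistatin libraries and 1 control library of day 14. Follistatin is an extracellular antagonist of myostatin and activins, ligands that restrain muscle size. The submitters abbreviate the control as MCS, with no explanation of the letters. How follistatin was supplied, what the control muscles were given, and the age, sex and number of the mice are not given in the sources used here. Replicates may therefore be technical, and every p-value measures the spread between these libraries only.

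Glycogen is the branched store of glucose that a working fibre draws on first. Ugp2 makes the activated sugar UDP-glucose, glycogen synthase (Gys1) adds it to the growing chain, and Gbe1 sets the branches. Glycogen phosphorylase (Pygm) cuts glucose units off again, after phosphorylase kinase, a complex whose subunits include the products of Phka1, Phkb and Phkg1, has switched it on. Protein phosphatase 1 opposes this: it activates the synthase and turns phosphorylase and its kinase off. Ppp1r3a and Ppp1r3c encode the subunits that carry the phosphatase to the glycogen particle, Ppp1r3a being the form typical of skeletal muscle.

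Levels are FPKM, fragments scaled to transcript length and to the mapped fragments of the library, so levels of different genes within a library are on a per-length scale. Fst, the follistatin gene, lay between 49.7 and 67.8 FPKM in the follistatin libraries of day 3, at 367 and 407 FPKM in those of day 7 and at 1315 and 1421 FPKM in those of day 14, against 0.808 to 1.42 FPKM in all controls. FPKM summed to between 364513 and 532859 per library, and read numbers are unknown. In the chronic set the sums were 364513 to 433552 in follistatin libraries and 485755 to 510584 in controls, without overlap. At day 3 they were 486377 to 515812 with follistatin and 508717 to 532859 in controls, and overlapped. The sums include genes listed at 0 under the authors' mark HIDATA, given to genes with too many reads to be estimated. In the chronic set Ckm, Mylpf, Pvalb, Aldoa and Gapdh were at 0 in every follistatin library and above 0 in every control. Mylpf, for example, stood at 14942 to 16277 FPKM in those controls. At day 3 Myh4 was at 0 with follistatin and at 8989 to 10504 FPKM in controls. The part of these sums in the chronic differences was not tested. Depth relative to control replicate 1 of day 3 was 0.683 to 1.27 in the day 3 libraries. In control replicate 1 of day 7, 16158 genes were above 0, while the rest of the chronic set had 19383 to 20283. In follistatin replicate 1 of day 7 and replicate 2 of day 14, genes with long transcripts (at least 4473 bases) lay low, with median log2 differences from the control mean of -0.37 and -0.40, while genes with short transcripts (at most 1967 bases) stood at 0.21 and 0.26. In the other 5 libraries of that set the long and short medians differed by 0.09 or less. In those 2 libraries, levels of genes that differ in transcript length are therefore not strictly comparable. Levels cannot be set against each other between day 3 and the chronic set. The phosphatase gene Ppp1cc, for example, averaged 15.0 FPKM in controls of day 3 and stood at 73.0 to 81.3 FPKM in chronic controls.

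Follistatin went with a higher level of Ppp1r3c at day 3 and with a lower level of Phkg1 in the chronic set, and those were the calls made among the 9 genes. Calls were made where limma's test on log2(FPKM + 1) gave an adjusted p below 0.05 (Benjamini-Hochberg, over all genes tested). At day 3 all 9 genes passed the filter on low values, 1 was called higher, 0 were called lower and 8 were not called, while 3 had an unadjusted p under 0.05. Over all 11268 genes tested at day 3, 1.49% were called, 0.923% higher and 0.568% lower, and 15.2% had an unadjusted p under 0.05. Of the chronic set, 8 genes were tested, 0 were called higher, 1 was called lower and 7 were not called, and all 8 had an unadjusted p under 0.05. Over all 11047 genes tested there, 5.5% were called, 2.24% higher and 3.27% lower, and 28.3% had an unadjusted p under 0.05. The ninth gene, Pygm, carries the authors' mark HIDATA in that set, which is set where a gene has too many reads to be estimated, and it is described by its listed values. The median log2 difference of the glycogen genes was -0.06 at day 3 and -0.48 in the chronic set, beside 0.01 and -0.09 over all genes tested. The authors' deposited table gives as significant 1 of the 9 higher and 1 lower at day 3, against 3.07% and 3.19% of all genes with an estimate, and 2 higher and 4 lower of 8 in the chronic set, against 6.65% and 11.2%.

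Follistatin and control libraries stood fully apart in 4 of the 9 genes at day 3, 1 higher and 3 lower with follistatin, where 8.31% of all genes lay apart on the higher side and 6.8% on the lower. They stood apart in 6 of the 8 tested genes in the chronic set, all 6 lower with follistatin, where 8.96% of all genes lay apart on the higher side and 21.5% on the lower. The 6 were Ppp1r3a, Gys1, Phka1, Phkb, Phkg1 and Ugp2. As the groups lay apart, leaving out libraries or changing the filter could not turn the sign of these 6 in the chronic set. Rescaling by the median ratio and quantile normalization could have turned it, and it stayed negative under each. Of the called genes of that set as a whole, 40.6% were higher, against 61.9% after rescaling by the median ratio and 55.9% after quantile normalization.

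**Figure D1:**
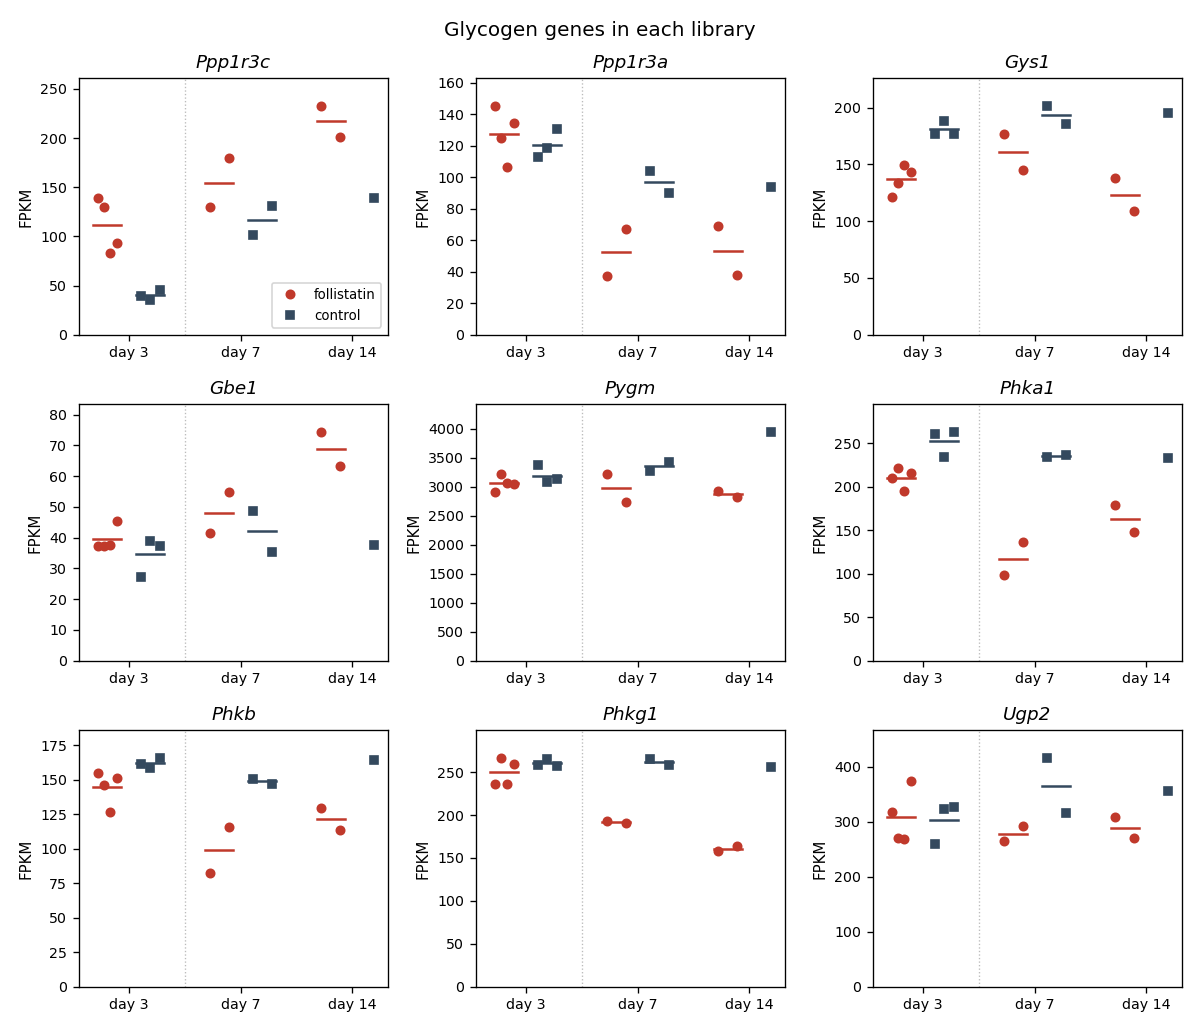
FPKM of each of the 9 glycogen genes (vertical axes, starting at 0) in each library, follistatin as red circles and control as dark squares, by day, with a bar at the mean of each group of 2 or more libraries. The dotted line separates day 3 from the chronic set, between which levels are not comparable. All follistatin libraries lie above all controls for Ppp1r3c at day 3, and all lie below all controls for Phkg1 at days 7 and 14.

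The phosphatase-targeting subunits Ppp1r3c and Ppp1r3a had the largest differences among the 9 genes, Ppp1r3c at day 3 and Ppp1r3a in the chronic set. Their upstream sequences are shown, with that of Phkg1, because these are the genes on which the results turn and to set the letters of a pair of related subunits side by side. The sequences are from RefSeq on GRCm38.p6, 5′ to 3′ on the gene's own strand, and end at the RefSeq start of the gene, or for Ppp1r3c at its GENCODE M21 start, which lies 49 bases further upstream. The GENCODE M21 span of Phkg1 begins far upstream of its RefSeq start, at 129898549, so the Phkg1 window lies inside that span. Capitals mark matches on either strand to GTAAACA (bound by FoxO factors), ACGTG (the core of the hypoxia response element), TGACG (part of the cAMP response element) and CANNTG (the E-box). CACGTG is an E-box that holds ACGTG on both strands, and CAGCTG is one form of the E-box.
Ppp1r3c: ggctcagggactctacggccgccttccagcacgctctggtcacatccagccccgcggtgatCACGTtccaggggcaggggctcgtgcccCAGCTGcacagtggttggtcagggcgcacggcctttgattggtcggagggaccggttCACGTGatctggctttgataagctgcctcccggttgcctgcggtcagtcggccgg
Ppp1r3a: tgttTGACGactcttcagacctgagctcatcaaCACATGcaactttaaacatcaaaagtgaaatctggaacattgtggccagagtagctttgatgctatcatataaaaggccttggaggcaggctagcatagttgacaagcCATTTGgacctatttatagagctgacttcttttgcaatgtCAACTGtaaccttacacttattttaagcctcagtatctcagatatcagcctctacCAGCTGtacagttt
Phkg1: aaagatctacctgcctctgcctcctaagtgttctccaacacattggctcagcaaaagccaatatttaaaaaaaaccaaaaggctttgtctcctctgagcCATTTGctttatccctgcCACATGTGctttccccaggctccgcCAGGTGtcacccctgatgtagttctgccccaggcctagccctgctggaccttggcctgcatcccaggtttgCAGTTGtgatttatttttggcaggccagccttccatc
The Ppp1r3c window (chr19:36736654-36736854, minus strand) held 3 matches to ACGTG, at 2 places, and 2 to CANNTG. The Ppp1r3a window (chr6:14755275-14755524, minus strand) held 0 matches to ACGTG, 1 to TGACG and 4 to CANNTG. The Phkg1 window (chr5:129879089-129879338, minus strand) held 5 matches to CANNTG and 0 to the others. The Ppp1r3c window was the richest in G and C at 66.2%, against 40.4% for Ppp1r3a and 50.8% for Phkg1. The Ppp1r3c window is shorter, with 201 bases against 250 in each of the other windows. No GTAAACA was found in any of them. Of all 32851 RefSeq promoters, the 250 upstream bases held GTAAACA in 3.17%, ACGTG in 16.6%, TGACG in 17.8%, CANNTG in 66.2% and CAGCTG in 13.0%. These matches describe letters in a window and were not tested for binding.

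Ppp1r3c (chromosome 19, 36731731 to 36736653, minus strand) encodes PTG, the targeting subunit found in many tissues, which brings phosphatase, synthase and phosphorylase together. At day 3 its level was 139, 130, 83.2 and 93.2 FPKM in the follistatin libraries, against 39.5, 35.6 and 45.2 FPKM in the controls. The lowest follistatin library lay well above the highest control. The means were 112 ± 27.5 FPKM with follistatin and 40.1 ± 4.85 FPKM in controls (SD, n = 4 and 3), a 2.78-fold difference. The log2 change was 1.43 (SE 0.18, 95% interval 1.00 to 1.85, adjusted p = 0.011 by limma), and the exact two-sided permutation p was 0.0286, the smallest that 35 splits can give. The change stayed between 1.31 and 1.56 under all alternatives, but limma no longer called it without control replicate 1 (adjusted p = 0.0581) or control replicate 2 (adjusted p = 0.0599).

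At the later days Ppp1r3c was listed at 130 and 180 FPKM in the follistatin libraries of day 7 and at 233 and 201 FPKM in those of day 14, against 101 and 131 FPKM in controls of day 7 and 139 FPKM in the control of day 14. The groups overlapped through follistatin replicate 1 of day 7, which lay below 2 of the 3 controls. Its log2 difference of 0.56 (SE 0.21, 95% interval 0.08 to 1.05) was not called (adjusted p = 0.133 by limma). Without follistatin replicate 1 of day 7 it was 0.72 and was called (adjusted p = 0.0449). The authors' deposited table gives Ppp1r3c as significant in both sets, with a q-value of 0.00191 at day 3 and of 0.0118 in the chronic set.

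Ppp1r3a (chromosome 6, 14713977 to 14755274, minus strand) did not follow Ppp1r3c. At day 3 it was listed at 145, 125, 106 and 134 FPKM in follistatin libraries, against 113, 118 and 131 FPKM in controls, and the groups overlapped widely. The log2 difference was 0.07 (SE 0.11, 95% interval -0.17 to 0.32, adjusted p = 0.807 by limma). Its later levels were 37.3 and 67.5 FPKM in the follistatin libraries of day 7 and 68.9 and 38.0 FPKM in those of day 14, against 104 and 90.2 FPKM in controls of day 7 and 93.9 FPKM in the control of day 14. All 4 follistatin libraries lay below all 3 controls, and the lowest were the same 2 libraries in which long transcripts lay low. Its mean was 52.9 ± 17.6 FPKM with follistatin and 96.0 ± 7.07 FPKM in controls (SD, n = 4 and 3). A log2 difference of -0.91 (SE 0.25, 95% interval -1.48 to -0.33) resulted and was not called (adjusted p = 0.0708 by limma). Without those 2 libraries, an alternative chosen after seeing the data, it was -0.48 and was called (adjusted p = 0.0337). It was also called with robust eBayes and with small RNA genes left out (adjusted p = 0.0493 and 0.0407). Over all its chronic alternatives the adjusted p ran from 0.0337 to 0.291. The longest transcript of Ppp1r3a has 6965 bases, and the part of transcript length in the difference was not tested further. The authors' deposited table gives the chronic difference as significant, with a q-value of 0.000894.

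The ratio of Ppp1r3c to Ppp1r3a within a library was 0.960, 1.04, 0.783 and 0.694 in the follistatin libraries of day 3, against 0.350, 0.300 and 0.346 in the controls. Later it was 3.49 and 2.66 with follistatin at day 7 and 3.38 and 5.31 at day 14, against 0.977 and 1.46 in controls of day 7 and 1.48 in the control of day 14. Every follistatin library had a higher ratio than every control of its set. In follistatin replicate 1 of day 7, Ppp1r3c itself lay below 2 of the 3 controls, and the high ratio went with the low Ppp1r3a. The longest transcripts of Ppp1r3c and Ppp1r3a have 2725 and 6965 bases, and the highest ratios, 3.49 and 5.31, were those of the 2 libraries in which long transcripts lay low. These ratios are a description and were not tested.

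**Figure D2:**
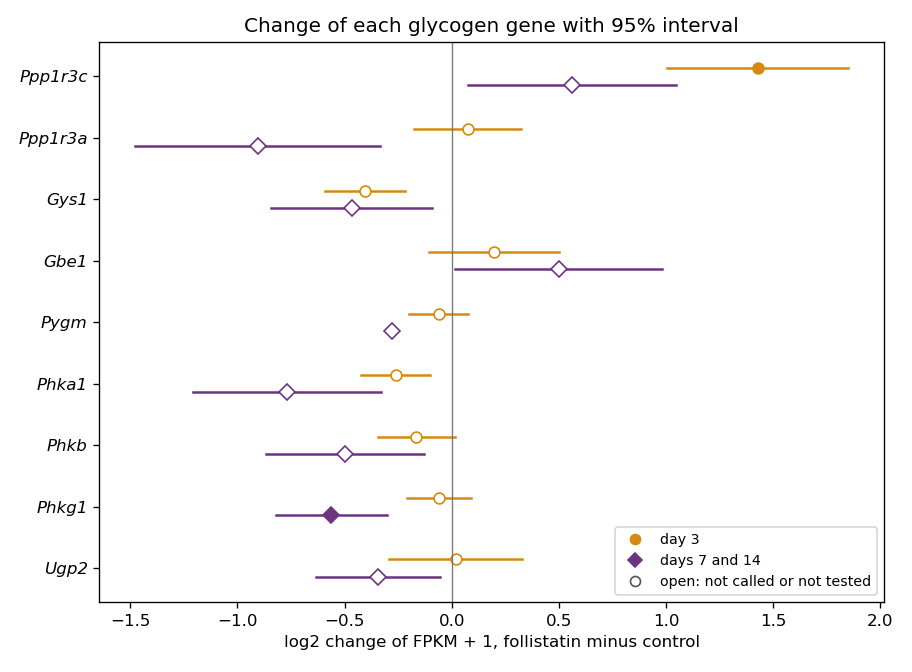
Log2 change of FPKM + 1, follistatin minus control, of each glycogen gene (horizontal axis) with its 95% interval from limma, at day 3 (orange circles) and at days 7 and 14 (purple diamonds). Filled symbols mark the called changes, Ppp1r3c at 1.43 and Phkg1 at -0.56. Pygm at days 7 and 14 was left out of the fit and has no interval.

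Of the synthesis genes, Gys1 lay lower with follistatin in both sets without being called. Gys1 (chromosome 7, 45434844 to 45456619, plus strand) was listed at 121, 133, 149 and 144 FPKM in the follistatin libraries of day 3, against 177, 188 and 177 FPKM in the controls. The highest follistatin library lay below the lowest control. The log2 difference was -0.40 (SE 0.08, 95% interval -0.59 to -0.22, adjusted p = 0.0587 by limma). It was called under 5 alternatives: a pseudocount of 0.1, a mean of at least 5 FPKM, quantile normalization, robust eBayes and small RNA genes left out (adjusted p from 0.0294 to 0.0488). Over all its alternatives at day 3 the adjusted p ran from 0.0294 to 0.208. The authors' deposited table gives Gys1 as significantly lower at day 3, with a q-value of 0.00345.

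Later, Gys1 was listed at 177 and 145 FPKM with follistatin at day 7 and at 138 and 109 FPKM at day 14, against 202 and 186 FPKM in controls of day 7 and 195 FPKM in the control of day 14. Again no follistatin library reached the lowest control. The log2 difference was -0.47 (SE 0.16, adjusted p = 0.115 by limma), and it was called without follistatin replicate 1 of day 7 (-0.58, adjusted p = 0.0468). It was also called without the 2 libraries with low long transcripts, chosen after seeing the data (-0.45, adjusted p = 0.0306). Over all its chronic alternatives the adjusted p ran from 0.0306 to 0.453. The q-value in the authors' deposited table was 0.0643. Gys1 shares 310 exon bases with Ruvbl2 on the opposite strand, and the strand setting of the libraries is not stated. Ruvbl2 was listed at 10.4 to 19.3 FPKM over all libraries, far below Gys1.

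Gbe1 and Ugp2, the branching enzyme and the source of UDP-glucose, were not called in either set. Gbe1 (chromosome 16, 70313949 to 70569716, plus strand) was listed at 37.3, 37.4, 37.6 and 45.5 FPKM with follistatin at day 3, against 27.3, 39.1 and 37.3 FPKM in controls, and the groups overlapped (log2 difference 0.20, SE 0.13). Its levels in the chronic set were 41.4 and 54.8 FPKM with follistatin at day 7 and 74.4 and 63.4 FPKM at day 14, against 48.8 and 35.3 FPKM in controls of day 7 and 37.6 FPKM in the control of day 14. Here 3 of the 4 follistatin libraries lay above all controls. The chronic log2 difference was 0.50 (SE 0.21, adjusted p = 0.166 by limma), and the authors' deposited table gives a q-value of 0.0339. Ppp1r3c and Gbe1 were the 2 of the 8 tested genes that stood above 0 in the chronic set.

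Ugp2 (chromosome 11, 21321138 to 21371201, minus strand) was listed at 318, 271, 268 and 375 FPKM with follistatin at day 3, against 259, 323 and 327 FPKM in controls, a log2 difference of 0.02 (95% interval -0.29 to 0.33). Its sign turned without control replicate 1 (-0.09), without follistatin replicate 1 or 4 (-0.0018 and -0.08). The chronic libraries gave 265 and 292 FPKM with follistatin at day 7 and 309 and 270 FPKM at day 14, against 416 and 315 FPKM in controls of day 7 and 355 FPKM in the control of day 14. The groups did not overlap, though follistatin replicate 1 of day 14 came within a few FPKM of the lowest control. On the log2 scale the difference was -0.34 (SE 0.13, adjusted p = 0.126 by limma), and it is not significant in the authors' deposited table (q-value 0.156). Ugp2 shares 78 exon bases with Gm12043 on the opposite strand.

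Pygm (chromosome 19, 6384399 to 6398459, plus strand), the muscle phosphorylase whose loss causes McArdle disease in humans, had by far the highest level of the 9 genes. At day 3 it was listed at 2905, 3221, 3071 and 3058 FPKM with follistatin, against 3371, 3084 and 3132 FPKM in controls. The groups overlapped, and the log2 difference was -0.06 (SE 0.06, 95% interval -0.20 to 0.08, adjusted p = 0.695 by limma), with the sign turned by quantile normalization (0.21). Chronic Pygm values were 3221 and 2738 FPKM with follistatin at day 7 and 2922 and 2827 FPKM at day 14, against 3272 and 3438 FPKM in controls of day 7 and 3950 FPKM in the control of day 14. All follistatin libraries lay below all controls, the nearest pair differing by less than the spread within either group. The log2 difference was -0.28, and with genes marked HIDATA kept it was not called (adjusted p = 0.137 by limma). The authors' deposited table gives no estimate for it there.

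The level of Gys1 as a share of that of Pygm within a library was 4.17%, 4.14%, 4.86% and 4.69% in the follistatin libraries of day 3, against 5.26%, 6.10% and 5.65% in the controls. Each follistatin share lay below each control share. The chronic shares were 5.50% and 5.31% with follistatin at day 7 and 4.71% and 3.85% at day 14, against 6.16% and 5.41% in controls of day 7 and 4.94% in the control of day 14, and the groups overlapped. These shares were not tested.

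Among the 3 phosphorylase kinase genes of the 9, limma called Phkg1, the catalytic subunit of muscle, lower with follistatin in the chronic set, and did not call Phka1 or Phkb. Phkg1 (chromosome 5, 129863421 to 129898549, minus strand) was listed at 236, 267, 237 and 260 FPKM with follistatin at day 3, against 258, 265 and 257 FPKM in controls, and the groups overlapped (log2 difference -0.06, SE 0.07). Phkg1 later stood at 193 and 191 FPKM with follistatin at day 7 and 158 and 164 FPKM at day 14, against 265 and 259 FPKM in controls of day 7 and 256 FPKM in the control of day 14. Replicates lay close together, and no follistatin library came near the controls. The means were 176 ± 18.3 FPKM with follistatin and 259.9 ± 5.07 FPKM in controls (SD, n = 4 and 3).

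Phkg1 fell by 0.56 on the log2 scale (SE 0.11, 95% interval -0.82 to -0.30, adjusted p = 0.0349 by limma), with an exact permutation p of 0.0286. The change ran from -0.65 to -0.45 over all alternatives. The call ended without any 1 of the controls (adjusted p from 0.122 to 0.180), without follistatin replicate 1 or 2 of day 14 (adjusted p = 0.0629 and 0.0525), with no filter on low values (0.0663), with rescaling by the median ratio (-0.45, adjusted p = 0.0508) and in the day 7 libraries alone (-0.45, adjusted p = 0.269). The call stood without the 2 libraries in which long transcripts lay low (-0.58, adjusted p = 0.0334), an alternative chosen after seeing the data. The longest transcript of Phkg1 has 2374 bases, and its exons together cover 6509. The part of transcript length in its difference was not tested. The authors' deposited table gives a q-value of 0.0134. Phkg1 shares 630 exon bases with Sumf2 on the opposite strand, which was listed at 4.60 to 8.87 FPKM over all libraries.

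Phka1 (chromosome X, 102513975 to 102644246, minus strand) encodes the muscle form of the regulatory alpha subunit. At day 3 it was listed at 210, 222, 195 and 216 FPKM with follistatin, against 260, 235 and 263 FPKM in controls. The groups did not overlap, but the log2 difference of -0.26 (SE 0.07) was not called (adjusted p = 0.132 by limma). At the later days it was listed at 98.1 and 137 FPKM with follistatin at day 7 and at 179 and 148 FPKM at day 14, against 234 and 237 FPKM in controls of day 7 and 233 FPKM in the control of day 14. The 3 controls were nearly equal, and the follistatin libraries were spread out below them. On the log2 scale Phka1 differed by -0.77 (SE 0.19, 95% interval -1.21 to -0.33, adjusted p = 0.0566 by limma). It passed the threshold under 7 of 19 alternatives, among them without follistatin replicate 1 of day 7 (-0.61, adjusted p = 0.0358), without follistatin replicate 1 of day 14 (-0.90, adjusted p = 0.0493) and without the 2 libraries with low long transcripts (-0.59, adjusted p = 0.0461). The adjusted p ran from 0.0323 to 0.212 over the 19. The authors' deposited table gives a q-value of 0.000894.

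Phkb (chromosome 8, 85840959 to 86061376, plus strand) encodes the beta subunit, which is shared between tissues. At day 3 it was listed at 155, 146, 127 and 151 FPKM with follistatin, against 161, 158 and 166 FPKM in controls, a log2 difference of -0.16 (SE 0.08, adjusted p = 0.373 by limma). Phkb in the chronic set had 82.3 and 116 FPKM with follistatin at day 7 and 129 and 113 FPKM at day 14, against 150 and 147 FPKM in controls of day 7 and 165 FPKM in the control of day 14. The groups were apart in both sets, by a narrow gap at day 3. The chronic log2 difference was -0.50 (SE 0.16, adjusted p = 0.0993 by limma) and was not called under any of its 19 alternatives, whereas the authors' deposited table gives a q-value of 0.0326. The longest transcripts of Phka1 and Phkb have 6115 and 5351 bases, within the range of lengths that lay low in 2 follistatin libraries.

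Set against Phkg1 in the same library, Phka1 was at 0.509 and 0.715 with follistatin at day 7 and at 1.13 and 0.907 at day 14, against 0.883 and 0.916 in controls of day 7 and 0.912 in the control of day 14. The ratio of Phkb to Phkg1 was 0.426 and 0.607 with follistatin at day 7 and 0.818 and 0.692 at day 14, against 0.566, 0.569 and 0.644 in the same controls. Both ratios were lowest in follistatin replicate 1 of day 7 and highest in follistatin replicate 1 of day 14, and both set a longer transcript against a shorter one. At day 3 the ratio of Phka1 to Phkg1 was 0.888, 0.831, 0.824 and 0.833 with follistatin, against 1.01, 0.883 and 1.02 in controls.

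**Figure D3:**
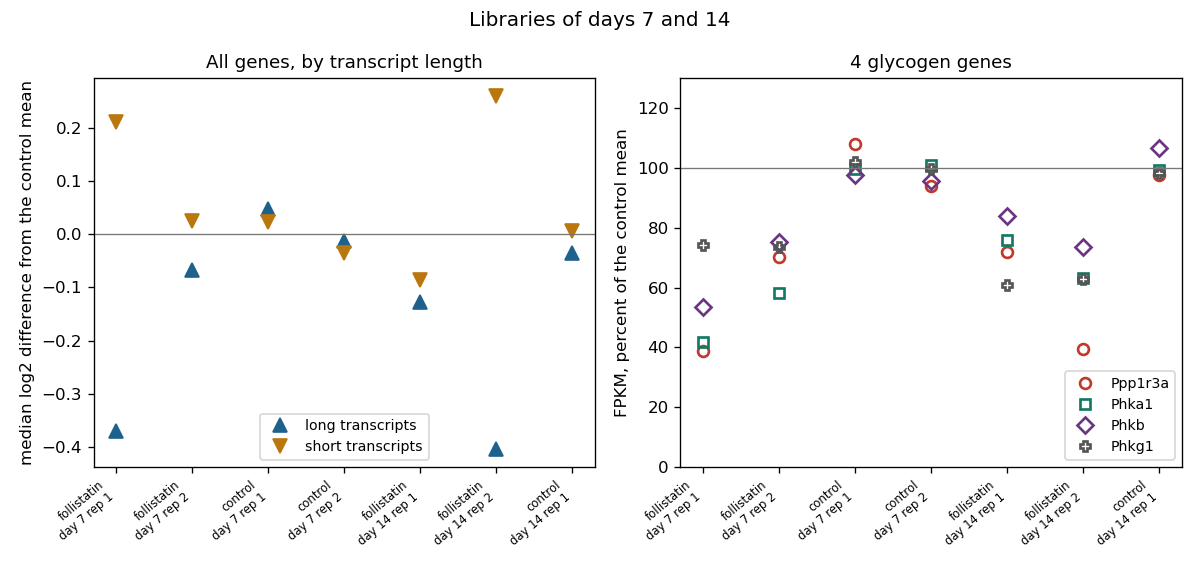
Left, the median log2 difference from the control mean over genes with long transcripts (at least 4473 bases, blue) and short transcripts (at most 1967 bases, ochre) in each library of days 7 and 14. Right, FPKM of Ppp1r3a, Phka1, Phkb and Phkg1 as percent of the control mean in the same libraries. These 4 are among the genes whose follistatin libraries all lay below all controls, so each lies below 100% in every follistatin library.

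Whether follistatin's effect differed between the chronic set and day 3 was asked with an interaction term fitted to the 14 libraries. Of the 8 glycogen genes tested, limma called 0, and 4 had an unadjusted p under 0.05, while 0.0884% of all 11306 genes were called and 14.8% had an unadjusted p under 0.05. The 4 were Ppp1r3a (-0.98, adjusted p = 0.202), Ppp1r3c (-0.86, adjusted p = 0.241), Phka1 (-0.51, adjusted p = 0.299) and Phkg1 (-0.50, adjusted p = 0.152), given as the log2 change in the chronic set minus that at day 3. The median over all genes was -0.11, and after rescaling by the median ratio it was 0.0045. Gys1 had the smallest difference in effect (-0.06, 95% interval -0.46 to 0.33), whose sign turned with rescaling (0.07).

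Between the follistatin libraries of day 14 and day 7, limma called 0 of the 8 glycogen genes, and 0 had an unadjusted p under 0.05, where 0.127% of all genes were called and 8.59% had an unadjusted p under 0.05. Gbe1 averaged 68.9 FPKM at day 14 and 48.1 FPKM at day 7 (log2 difference 0.52, 95% interval -0.06 to 1.10, n = 2 each). Ppp1r3c averaged 217 FPKM at day 14 and 155 FPKM at day 7 (0.50, 95% interval -0.07 to 1.07). Gys1 averaged 123 FPKM at day 14 and 161 FPKM at day 7 (-0.39, 95% interval -0.85 to 0.08). With 2 libraries a day and 1 control library at day 14, intervals were wide, and each day held 1 of the 2 libraries in which long transcripts lay low.

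Among further genes of glycogen metabolism, Stbd1 rose in both sets. Of 11 other glycogen enzymes and glycogen-binding proteins 10 were tested in each set, and 1 was called higher at day 3, 1 higher and 1 lower in the chronic set. Over all genes tested, 0.923% were called higher at day 3, and 2.24% higher and 3.27% lower in the chronic set. Stbd1 (chromosome 5, 92603041 to 92606579, plus strand) encodes a protein that binds glycogen and ties it to membranes. It was listed at 77.5, 76.6, 77.4 and 67.8 FPKM with follistatin at day 3, against 27.4, 30.5 and 31.1 FPKM in controls. The groups were far apart, with a log2 change of 1.31 (SE 0.08, adjusted p = 0.000245 by limma). Later it was listed at 133 and 157 FPKM with follistatin at day 7 and at 201 and 209 FPKM at day 14, against 56.4 and 59.3 FPKM in controls of day 7 and 45.3 FPKM in the control of day 14. The log2 change was 1.67 (SE 0.19, adjusted p = 0.00655 by limma). It was called with any 1 library left out, but not in the day 7 libraries alone (1.31, adjusted p = 0.0714).

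Epm2a (chromosome 10, 11343404 to 11459644, plus strand) encodes laforin, the phosphatase that removes phosphate from glycogen and is lost in human Lafora disease. In the chronic set it was listed at 15.8 and 23.7 FPKM with follistatin at day 7 and at 25.5 and 14.2 FPKM at day 14, against 42.8 and 37.0 FPKM in controls of day 7 and 42.0 FPKM in the control of day 14. The lowest values were again those of follistatin replicate 1 of day 7 and replicate 2 of day 14. The longest transcript of Epm2a has 3287 bases, in neither the long nor the short class. The part of transcript length was not tested. Epm2a fell by 1.04 on the log2 scale (SE 0.21, adjusted p = 0.0358 by limma). The call ended without any 1 of the controls (adjusted p from 0.0943 to 0.169), with no filter on low values (0.0606), with day as a covariate (0.0513) and in the day 7 libraries alone (0.208). At day 3 it was at 39.1 ± 4.38 FPKM with follistatin and 42.6 ± 3.01 FPKM in controls (SD, n = 4 and 3), and was not called.

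Of 13 tested kinase genes that act on glycogen enzymes, 1 was called higher in each set. Over all genes tested, 0.923% were called higher at day 3 and 2.24% in the chronic set. In each set 5 of the 13 had an unadjusted p under 0.05, against 15.2% and 28.3% of all genes. The gene called was Prkag2, which encodes a regulatory gamma subunit of AMP-activated protein kinase whose mutation causes glycogen storage in the human heart. Prkag2 (chromosome 5, 24862744 to 25100642, minus strand) was listed at 15.9, 15.6, 11.7 and 15.3 FPKM with follistatin at day 3, against 6.96, 6.61 and 8.54 FPKM in controls (log2 change 0.90, SE 0.13, adjusted p = 0.0142 by limma). In the chronic set it was listed at 13.8 and 18.3 FPKM with follistatin at day 7 and at 16.6 and 16.6 FPKM at day 14, against 8.95 and 9.57 FPKM in controls of day 7 and 8.87 FPKM in the control of day 14 (log2 change 0.77, SE 0.11, adjusted p = 0.013 by limma). The groups were apart in both sets. The call ended without control replicate 1 or 2 at day 3 (adjusted p = 0.0796 and 0.0737), without any 1 of the controls in the chronic set (adjusted p from 0.0524 to 0.0907) and in the day 7 libraries alone (0.233). Prkag2 shares 142 exon bases with Prkag2os1 and 795 with Prkag2os2, both on the opposite strand. Prkag2os1 is among the listed genes and Prkag2os2 is not. The part of these overlaps in the Prkag2 levels was not tested.

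No other part of protein phosphatase 1 that acts on glycogen was called by limma: 0 of 7 tested at day 3, with 0 at an unadjusted p under 0.05, and 0 of 5 in the chronic set, with 4 at an unadjusted p under 0.05. Over all genes tested, 1.49% were called and 15.2% had an unadjusted p under 0.05 at day 3, and 5.5% and 28.3% did so in the chronic set. The smallest p in the chronic set was that of Ppp1r1a, the phosphatase's inhibitor 1, at 36.4 ± 10.6 FPKM with follistatin and 20.4 ± 2.42 FPKM in controls (log2 difference 0.77, adjusted p = 0.0765), and at day 3 that of Ppp1cc, a catalytic subunit (0.08, adjusted p = 0.631). Of 4 other phosphorylase kinase genes limma called 0 in each set, with 1 at day 3 and 0 in the chronic set at an unadjusted p under 0.05. Stbd1, Epm2a and Prkag2 are thus the called genes of these 4 lists.

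**Figure D4:**
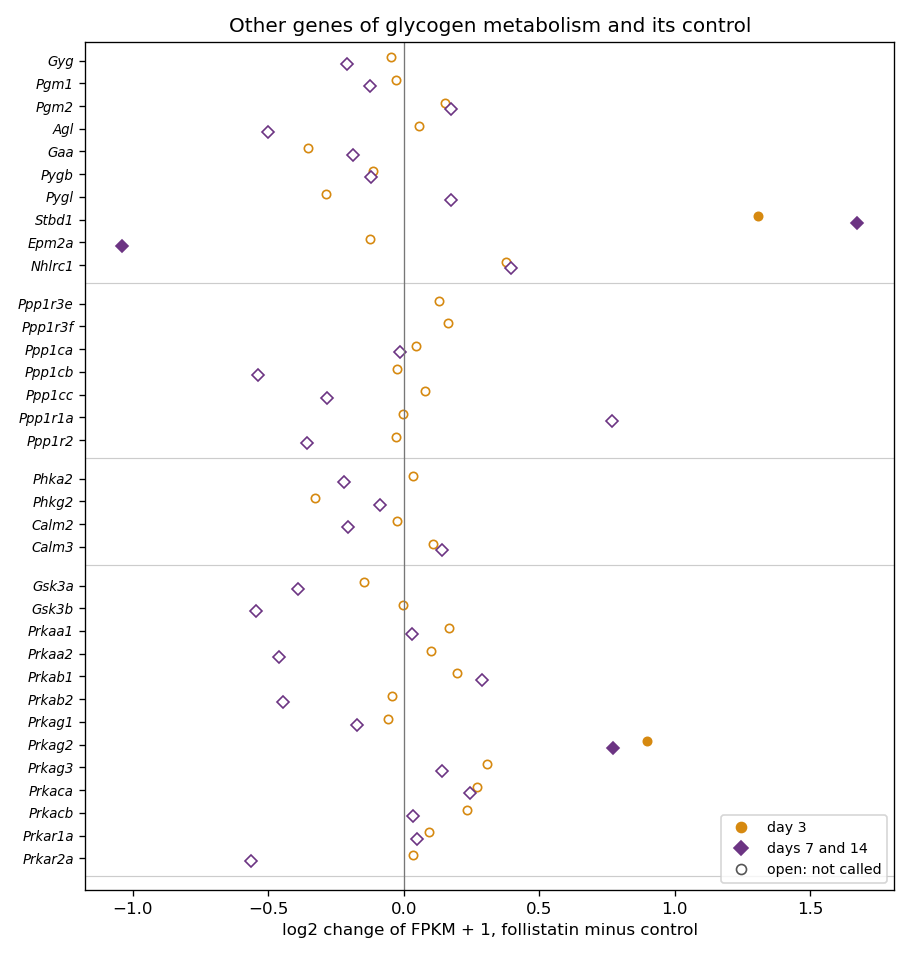
Log2 change of FPKM + 1, follistatin minus control (horizontal axis), of further glycogen enzymes and binding proteins, other phosphatase 1 parts, other phosphorylase kinase parts and kinases, from top to bottom, at day 3 (orange circles) and at days 7 and 14 (purple diamonds). Filled symbols are called changes: Stbd1 and Prkag2 in both sets, and Epm2a at days 7 and 14.

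Glycolysis, which takes up the glucose units freed by Pygm, was counted for comparison. Limma called 0 of 15 tested glycolysis genes at day 3, with 3 at an unadjusted p under 0.05, and 2 higher and 1 lower of 12 in the chronic set. Over all genes tested, 1.49% were called and 15.2% had an unadjusted p under 0.05 at day 3, and 2.24% were called higher and 3.27% lower in the chronic set. The 3 were named after their values were seen. Pfkm, the muscle phosphofructokinase, averaged 1097 ± 151 FPKM with follistatin and 2094 ± 184 FPKM in controls (log2 change -0.94, adjusted p = 0.0125). Pgk1 averaged 1495 ± 244 FPKM with follistatin and 900.1 ± 20.6 FPKM in controls (0.72, adjusted p = 0.0281), and Eno1 50.7 ± 4.64 FPKM with follistatin and 32.5 ± 3.44 FPKM in controls (0.63, adjusted p = 0.0309). Leaving out control replicate 1 of day 7 or the control of day 14 ended all 3 calls (adjusted p from 0.07 to 0.149), and leaving out control replicate 2 of day 7 ended those of Pgk1 and Eno1 (0.107 and 0.0902). The calls of Pgk1 and Eno1 also ended without follistatin replicate 2 of day 7 or replicate 1 of day 14 (0.0527 to 0.0576). None of the 3 was called in the day 7 libraries alone (adjusted p = 0.233 for Pfkm, 0.228 for Pgk1 and 0.180 for Eno1).

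In bulk muscle, fewer cells of a type and less RNA per cell cannot be told apart. The fibre markers Acta1, Ckm, Mylpf, Tnnt3 and Des, of which 4 were estimated at day 3, summed to 41968 to 48192 FPKM in follistatin libraries of that day, against 41489 to 45433 FPKM in controls. Of these, 1 was estimated in the chronic set, and of the 6 fast-fibre markers 0 were, Acta1 and Myh4 being listed at 0 with the mark HIDATA. The 6 slow-fibre markers summed to 24.1 to 33.7 FPKM with follistatin and 33.4 to 37.9 FPKM in chronic controls. Myh7 was at 1.08 FPKM or less in the chronic set. At day 3 the slow-fibre markers summed to 72.7 to 211 FPKM with follistatin and 58.7 to 126 FPKM in controls. The 5 endothelial markers summed to 53.4 to 99.0 FPKM with follistatin and 112 to 151 FPKM in chronic controls, and at day 3 to 89.9 to 99.9 FPKM with follistatin and 109 to 119 FPKM in controls. The 5 Schwann cell markers summed to 19.4 to 34.9 FPKM with follistatin and 40.5 to 90.2 FPKM in chronic controls, and the 5 smooth muscle markers to 18.4 to 48.9 FPKM with follistatin and 51.4 to 71.8 FPKM in chronic controls. The 5 macrophage markers summed to 22.8 to 67.7 FPKM with follistatin and 14.5 to 34.6 FPKM in chronic controls, and the 5 fibroblast markers to 190 to 376 FPKM with follistatin and 251 to 375 FPKM in chronic controls. The 5 adipocyte markers summed to 4.59 to 34.2 FPKM with follistatin and 13.2 to 30.5 FPKM in chronic controls. The part of these cells in the glycogen results was not tested.

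Within the follistatin libraries of the chronic set the 9 genes stood in the order Pygm, Ugp2, Ppp1r3c, Phkg1, Gys1, Phka1, Phkb, Gbe1 and Ppp1r3a by mean FPKM. In chronic controls the order was Pygm, Ugp2, Phkg1, Phka1, Gys1, Phkb, Ppp1r3c, Ppp1r3a and Gbe1. The first order includes the 2 libraries in which long transcripts lay low. Of the neighbours with follistatin, the ranges of FPKM did not overlap for Pygm and Ugp2, for Ugp2 and Ppp1r3c, and for Phkb and Gbe1, while those of the other 5 pairs did. Ppp1r3a stood last with follistatin, next to Gbe1 (58.5 ± 14.0 FPKM). At day 3 Ppp1r3c and Ppp1r3a had means of 112 and 128 FPKM with follistatin, against 40.1 and 121 FPKM in controls.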

How the data were processed

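Poly(A) RNA was sequenced from TruSeq libraries, per the labels' protocols. The authors aligned reads to mm10 with TopHat and made FPKM with Cuffdiff, per the submitters' processing notes, without versions. The deposited library files hold FPKM per gene, and 2 deposited tables hold the authors' log2 fold changes, Cuffdiff test scores, p-values and q-values. Of 24386 listed genes, 27 with symbols turned into dates were left out.

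Each set was fitted with limma 3.58.1 in R 4.3.3 (eBayes with trend, two-sided) on log2(FPKM + 1). The chronic fit pooled days 7 and 14 with no term for day, so its spread and SDs include any difference between days. With day as a covariate, 485 genes were called in that set, against 608 without it. Genes with a set mean under 1 FPKM were left out, as were genes marked HIDATA (4 at day 3, 31 in the chronic set). The added 1 understates changes of low genes. The interaction used all 14 libraries. The contrast of day 14 with day 7 used the 7 chronic libraries. Exact permutation tests used the 35 splits of 7 libraries. The limma fits were tested on simulated data with independent noise and without the low long transcripts of 2 libraries. Of simulated log2 changes of 1, 91% were called at day 3 and 68% in the chronic set. For changes of 2 the shares were 99% and 98%. Unchanged genes were called in 0.136% and 0.065%. Changes smaller than 1 were not simulated.

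The 9 genes, the gene lists and the tests were chosen with earlier results of these data known. All 9 genes are named, and of each other glycogen list up to 4 called genes, or else the gene with the smallest p. From the phosphorylase kinase list 1 gene is not reported here, and no gene of that list is named. Positions are from GENCODE M21 (GRCm38) and promoters from RefSeq GRCm38.p6, in which all 9 genes were matched. Read depth is unknown, and the strand setting is not given in the sources used here.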

Additional observations from a re-analysis of the deposited data

Results flagged for a closer look

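Gbe1 in follistatin replicate 4 of day 3, at 45.5 FPKM, stood far above the other 3 follistatin libraries of that day (37.3 to 37.6 FPKM), with 97.0% of the group's range in the gap to its nearest neighbour. The 9 genes gave 18 such groups of 4 libraries, and chance marks about 1 in 20. No cause was tested.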

How the results depend on the processing

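At day 3, the count of genes called over all genes, 168, was 266 with small RNA genes left out and 39 to 165 with 1 library left out. The count of glycogen genes called there, 1, was 2 with a pseudocount of 0.1, a mean of at least 5 FPKM, quantile normalization, robust eBayes or small RNA genes left out, and 0 to 1 with 1 library left out. In the chronic set, the 608 genes called became 284 with no filter on low values, 964 with small RNA genes left out, 30 in the day 7 libraries alone, 1216 without the 2 follistatin libraries with low long transcripts (chosen after seeing the data), and 43 to 907 with 1 library left out. The lowest was without control replicate 1 of day 7 and the highest without follistatin replicate 1 of day 7. The 1 glycogen gene called there became 2 with a pseudocount of 0.1 or a mean of at least 5 FPKM, 3 with robust eBayes or small RNA genes left out, 4 without the 2 libraries, 0 with no filter, rescaling or day 7 alone, and 0 to 4 with 1 library left out. The 10 called differences between the sets became 2 with no filter, 6 with rescaling, 24 with genes marked HIDATA kept and 2 to 32 with 1 library left out. The 14 genes called between days became 26 with robust eBayes and 11 to 58 with 1 library left out. No glycogen gene was called in the last 2 comparisons under any alternative run.

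Signs turned for Pygm at day 3 with quantile normalization (0.21). They turned for Ugp2 at day 3 without control replicate 1 (-0.0904), follistatin replicate 1 (-0.0018) or replicate 4 (-0.0805), the range with 1 library left out being -0.0904 to 0.0799. They turned for Ppp1r1a at day 3 with a pseudocount of 0.1 (0.000525), without controls 1 and 2 (0.21 and 0.0986) and without follistatin replicate 2 or 4 (0.0683 and 0.0682; range -0.31 to 0.21), and for Eno1 at day 3 without follistatin replicate 4 (-0.0352; range to 0.23). The Gys1 difference between sets turned with rescaling (0.0715) and without follistatin replicate 2 of day 14 (0.0573), in a range of -0.18 to 0.0573. Between days, the signs of Ppp1r3a (-0.39 and -0.39) and Ugp2 (-0.0166 and -0.0439) turned without follistatin replicate 1 of day 7 or of day 14, in ranges up to 0.45 and 0.15. The cause was not tested. Pgk1, Pfkm and Epm2a were not called with no filter on low values (adjusted p = 0.101, 0.0614 and 0.0606).

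Deviations of same-numbered libraries from their group means had correlations of -0.0562 to -0.0331 at day 3 and 0.0143 at day 7. With 2 libraries a group at day 7, replicates 1 and 2 give the same value by construction. Day 14 was not examined, and low correlations cannot show that the libraries were unpaired. A replicate block gave 19 genes called at day 3 and 164 in the chronic set, with 0 glycogen genes in each, and turned Ugp2 (-0.0805), Ppp1r1a (0.0682) and Eno1 (-0.0352) at day 3. The block also ended the Prkag2 calls at day 3 and in the chronic set (adjusted p = 0.167 and 0.0556 by limma). In the chronic set it ended those of Epm2a (0.0861), Pgk1 (0.0612) and Eno1 (0.0612). Depth limits could not be set without read numbers.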
